A study of Mus musculus with 4 samples.

Results

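The Tex and Spata genes carry names given for their expression in testis ("testis expressed") or for an association with spermatogenesis, and were described here in testes of wild-type (WT) and Tas1r3-deficient (KO) mice. Members were the gene symbols of the deposited table that began with Tex or Spata followed by a digit, without Tex11, Tex12, Tex14, Spata16 and Spata22. This gave 63 genes, 35 named Tex and 28 named Spata, of 17924 gene symbols in all. The data came from 4 testis samples of male C57BL/6 mice on a normal diet for 18 weeks, 2 labelled WT and 2 labelled Tas1r3 KO. Tas1r3 encodes the subunit shared by the sweet and umami taste receptors, and the series compares gene expression in testis with and without it. The labels do not give the deleted part of Tas1r3, whether mice were pooled, or whether samples of a genotype came from separate mice, and p-values therefore refer to the spread between the 4 libraries only.

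Male germ cells develop from spermatogonia through meiotic spermatocytes to round and then elongating spermatids, in which the acrosome, the condensed sperm head and the flagellum are built. A name of the Tex or Spata type says where a gene was found and not what it does. The names therefore cover proteins of meiosis, of the sperm head and tail, of mitochondria and of the cytoskeleton, and also proteins that most cells make. In whole testis, fewer cells of a type and less RNA per cell cannot be told apart.

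The libraries were shallow and their depth followed genotype. Read numbers estimated from the spacing of low values were about 1719370 for WT sample 1, 1807700 for WT sample 2, 748637 for KO sample 1 and 597940 for KO sample 2. Levels are read counts scaled to a common library total (CPM), summed over the transcripts of a gene, and 3 reads are worth 1.74, 1.66, 4.01 and 5.02 CPM in these libraries. The targeted gene Tas1r3 measured 13.8 and 20.5 CPM in WT against 1.34 CPM and 0 in KO, about 61 reads against 1 (-3.54 on the log2 scale, SE 0.60; limma adjusted p = 0.942). Germ cell, Sertoli cell and Leydig cell markers had values in all libraries. The endothelial marker Pecam1 was at 0.09 CPM in WT sample 1 and at 0 in KO sample 2. In KO sample 2 the other endothelial markers, Cdh5 and Cldn5, were at 3.34 and 12.1 CPM. The 5 blood markers summed to 186 CPM in WT sample 2 and to 47.8, 35.8 and 53.9 CPM in WT sample 1 and KO samples 1 and 2. The 5 elongating spermatid markers summed to 24662 and 24613 CPM in WT, 20642 CPM in KO sample 1 and 31050.0 CPM in KO sample 2. The 5 spermatocyte markers summed to 850.4 and 822 CPM in WT, 1079 CPM in KO sample 1 and 840.1 CPM in KO sample 2. Of the 4 epididymis markers 2 were in the table, and they went opposite ways. Crisp1 was at 40.7 CPM in WT sample 1 and at 0 in the other libraries. Rnase10 was at 0.0045 CPM in WT sample 1, 3.75 CPM in WT sample 2, and 3.88 and 3.46 CPM in KO.

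Of 2 sets of members, the first holds near copies with different levels and the other holds genes with more than 1 annotated start. Promoter windows are shown for these sets and for Tex9, the member with the smallest p. They are RefSeq windows of GRCm38.p6, from 250 bases before to 50 bases after an annotated start, written 5′ to 3′ on the gene's strand. Of the 63 members 55 matched, with 67 windows. Capitals mark every match, on either strand, of the cAMP response element TGACGTCA, its half-site TGACG, the TATA box TATAAA and the X-box half-site GTTGCC; a match of the full element also counts as a match of its half-site. The cAMP response element is bound by CREM in spermatids and the X-box by RFX factors in ciliated cells and spermatids.

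Spata31d1a, chr13:59706148-59706447 (-): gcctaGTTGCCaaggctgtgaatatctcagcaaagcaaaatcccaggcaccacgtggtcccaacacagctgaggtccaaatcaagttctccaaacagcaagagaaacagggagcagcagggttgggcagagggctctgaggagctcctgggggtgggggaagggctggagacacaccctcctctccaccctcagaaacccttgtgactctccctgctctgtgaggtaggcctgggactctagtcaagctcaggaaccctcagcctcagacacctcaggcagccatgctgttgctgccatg
Spata31d1b, chr13:59712034-59712333 (+): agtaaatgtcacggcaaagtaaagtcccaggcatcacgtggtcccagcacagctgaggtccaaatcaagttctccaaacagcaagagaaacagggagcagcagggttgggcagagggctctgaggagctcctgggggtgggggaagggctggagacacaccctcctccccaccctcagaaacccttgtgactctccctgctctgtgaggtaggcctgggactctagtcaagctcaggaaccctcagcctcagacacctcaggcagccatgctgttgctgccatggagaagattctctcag
Spata31d1c, chr13:65032808-65033107 (+): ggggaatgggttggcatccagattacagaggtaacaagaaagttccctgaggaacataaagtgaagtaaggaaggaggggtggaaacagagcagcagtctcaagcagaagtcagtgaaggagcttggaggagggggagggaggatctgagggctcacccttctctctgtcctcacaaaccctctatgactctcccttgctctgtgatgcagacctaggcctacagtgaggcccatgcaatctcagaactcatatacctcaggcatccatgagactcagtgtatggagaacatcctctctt
Spata31d1d, chr13:59731703-59732002 (-): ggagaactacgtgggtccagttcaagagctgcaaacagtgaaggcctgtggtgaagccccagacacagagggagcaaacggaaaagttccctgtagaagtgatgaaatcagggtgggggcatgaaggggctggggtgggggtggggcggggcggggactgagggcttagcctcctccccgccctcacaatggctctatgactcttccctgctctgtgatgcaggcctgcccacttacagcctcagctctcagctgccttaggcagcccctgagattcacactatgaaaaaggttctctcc
Spata6 upstream start, chr4:111719760-111720059 (+): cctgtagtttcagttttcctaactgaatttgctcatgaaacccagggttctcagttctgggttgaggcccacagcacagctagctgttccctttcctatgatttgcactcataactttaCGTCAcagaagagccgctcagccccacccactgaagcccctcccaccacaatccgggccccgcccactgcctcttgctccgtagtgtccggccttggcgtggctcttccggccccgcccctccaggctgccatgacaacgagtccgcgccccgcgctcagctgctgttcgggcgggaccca
Spata6 downstream start, chr4:111777347-111777646 (+): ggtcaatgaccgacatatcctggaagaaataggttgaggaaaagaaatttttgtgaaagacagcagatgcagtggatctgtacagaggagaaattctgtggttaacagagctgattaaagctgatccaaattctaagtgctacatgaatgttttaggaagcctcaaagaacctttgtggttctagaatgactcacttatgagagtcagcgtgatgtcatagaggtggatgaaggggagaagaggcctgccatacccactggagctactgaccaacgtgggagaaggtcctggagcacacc
Tex33 upstream start, chr15:78395863-78396162 (-): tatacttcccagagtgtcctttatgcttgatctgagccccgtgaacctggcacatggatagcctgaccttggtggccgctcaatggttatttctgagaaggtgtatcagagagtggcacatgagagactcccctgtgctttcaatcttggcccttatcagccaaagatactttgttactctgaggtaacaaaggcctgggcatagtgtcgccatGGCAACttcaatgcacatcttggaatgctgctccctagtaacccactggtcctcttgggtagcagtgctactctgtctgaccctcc
Tex33 downstream start, chr15:78388720-78389019 (-): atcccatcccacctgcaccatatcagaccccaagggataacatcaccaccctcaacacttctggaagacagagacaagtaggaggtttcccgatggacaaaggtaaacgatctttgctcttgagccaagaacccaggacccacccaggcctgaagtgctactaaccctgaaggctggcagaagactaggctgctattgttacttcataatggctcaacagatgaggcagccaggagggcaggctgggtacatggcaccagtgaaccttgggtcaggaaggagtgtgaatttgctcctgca
Tex9, chr9:72491910-72492209 (-): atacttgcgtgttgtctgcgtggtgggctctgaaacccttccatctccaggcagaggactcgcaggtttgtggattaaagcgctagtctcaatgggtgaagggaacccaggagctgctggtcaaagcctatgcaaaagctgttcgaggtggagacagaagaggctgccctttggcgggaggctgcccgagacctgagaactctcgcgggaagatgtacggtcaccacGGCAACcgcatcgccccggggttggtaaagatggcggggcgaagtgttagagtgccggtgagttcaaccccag

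The upstream Spata6 window holds the half-site, read as CGTCA on the gene's strand, and the windows of Spata31d1a, the upstream Tex33 start and Tex9 hold the X-box half-site. The match in the Spata31d1a window lies near its 5′ end, outside the stretch that aligns with the window of Spata31d1b. Shares were set beside those of all 32851 windows. The full cAMP response element was found in 1 of 67 member windows (1.49%) and in 1.79% of all windows. Its half-site was found in 23.9% of member windows and 20.8% of all, the TATA box in 7.46% and 13.6%, and the X-box half-site in 17.9% and 12.5%. The upstream windows of Spata6 and of Tex9 held 16 and 17 CpG dinucleotides, where the median was 4 for member windows and 7 for all windows. A match is a run of letters and not a measured binding site.

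Members were abundant. All 63 passed the filter of at least 1 CPM in at least 2 libraries, and 62 were at 1 CPM or more in every library. The exception was Tex28, an X-linked gene at 2.76 and 3.25 CPM in WT, 2.67 CPM in KO sample 1 and 0 in KO sample 2, where a count of 0 allows up to 5.02 CPM. The median of the members' mean levels was 88.0 CPM, against 13.5 CPM over all genes, and 29 members had a mean of at least 100 CPM. Together they took 13808 and 13969 CPM of the WT libraries, and 13078 and 14435 CPM of the KO libraries. They lie on 17 chromosomes, with 6 on chromosome 4, the chromosome of Tas1r3. The nearest of these, Spata21, lies 15.1 Mb from it.

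**Figure D1:**
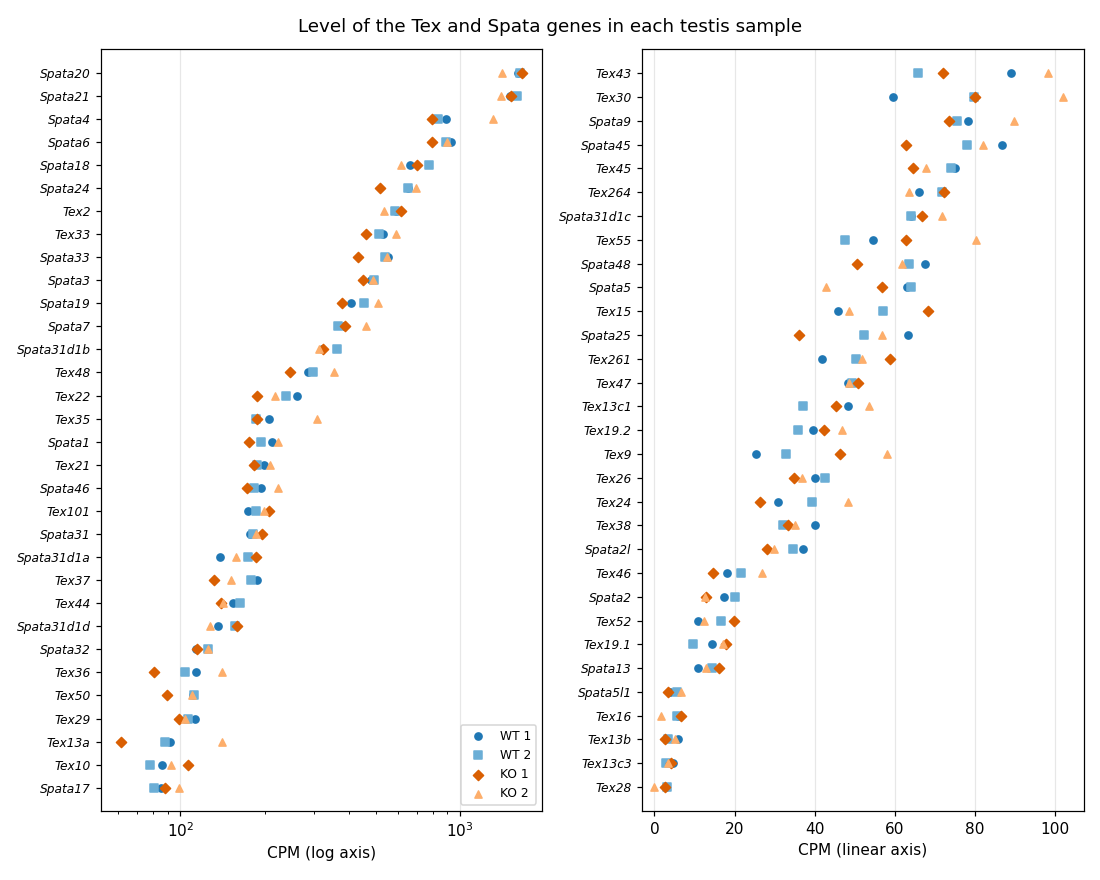
Level of each of the 63 Tex and Spata genes in the 4 testis samples, ordered by mean, in CPM. The left panel has a log axis and holds the higher genes, and the right panel has a linear axis that reaches 0. Points are single samples, blue for WT and orange for KO. Spata20 and Spata21 lead in every library, and KO 2 stands to the right of KO 1 for 41 of 63 genes.

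The most abundant members per library were Spata20 and Spata21. Spata20, a thioredoxin-like protein of spermatids, measured 1608 and 1634 CPM in WT against 1664 and 1413 CPM in KO. Spata21, an EF-hand protein, measured 1508 and 1599 CPM in WT against 1513 and 1395 CPM in KO. Samples of both genotypes overlapped for both genes, and their log2 fold changes were -0.08 (95% interval -0.37 to 0.21) and -0.10 (-0.37 to 0.17). Spata4 followed at 889.8 and 833 CPM in WT, 795 CPM in KO sample 1 and 1308 CPM in KO sample 2, so that a single KO library stood above the other 3. Spata6, needed for the connecting piece that joins sperm head and tail, measured 930.0 and 893 CPM in WT against 793 and 893 CPM in KO.

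Below these came Spata18, Spata24, Tex2 and Tex33. Spata18 (Mieap), a protein of mitochondrial quality control, measured 664 and 775 CPM in WT against 701 and 614 CPM in KO. Spata24 measured 651 and 652 CPM in WT against 516 and 692 CPM in KO. It shares 32.5% of its 50-base words with a gene model listed as SPATA24. Whether that model lies at the same place, and whether reads are divided between them, was not tested. Tex2, a lipid transfer protein of the endoplasmic reticulum, measured 587 and 584 CPM in WT against 614 and 535 CPM in KO. None of these genes separated the genotypes: the KO samples lay on both sides of the WT samples for Spata24 and Tex2, and Spata18 values interleaved. Tex33 measured 528 and 513 CPM in WT against 461 and 587 CPM in KO, and its mean difference was 0.00 on the log2 scale (95% interval -0.34 to 0.34).

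Per transcript length the order was different. Dividing each transcript by its length put Spata33, which binds calcineurin in the mouse sperm tail, first at 997 CPM per kilobase, averaged over 4 libraries. Spata4 followed at 905, Spata24 at 886 and Spata19, needed for the sperm mitochondrial sheath, at 621 CPM per kilobase. Spata20 and Spata21 came after these at 610.1 and 598 CPM per kilobase, as their transcripts of 2589 and 2513 bases are longer than the 518 bases of Spata33. Tex2 dropped from place 7 by CPM to place 22, at 117 CPM per kilobase, and Tex15, with 8408 bases, was at 6.53 CPM per kilobase. Spata33 itself measured 551 and 538 CPM in WT against 430.0 and 547 CPM in KO.

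No Tex or Spata gene differed between genotypes after adjustment over all genes. In limma on log2(CPM + 1), 0 of 63 members had an adjusted p under 0.05, where 1 of 17744 tested genes did (0.00564%). At an unadjusted p under 0.05 there was 1 higher member, Tex9, and 1 lower member, Tex37, together 3.17% of members, against 4.69% of all tested genes (1.37% higher and 3.33% lower). The share was thus near the background. KO means were higher in 33 members and lower in 30, and the median log2 fold change was 0.01, with -0.05 over all tested genes. Both KO samples lay outside the WT range on the same side in 24 members (38.1%), 12 in each direction, against 34.4% of all tested genes (15% higher and 19.4% lower). The 33 other sperm- and testis-named genes tested, from related families such as Spag, Spaca and Tsga with the 5 symbols left out above, had a median of -0.02, with 0 past the adjusted threshold.

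The spread was small enough to bound most members. The 95% interval of the log2 fold change lay within a 2-fold change in both directions for 54 of 63 members (85.7%), and for 41.3% of all tested genes. At mean levels of 20 CPM and above this held for 53 of 54 members (98.1%) and for 88.0% of all genes. The exception among members at that level was Tex9. For the 9 members under 20 CPM it held for 1 only.

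**Figure D2:**
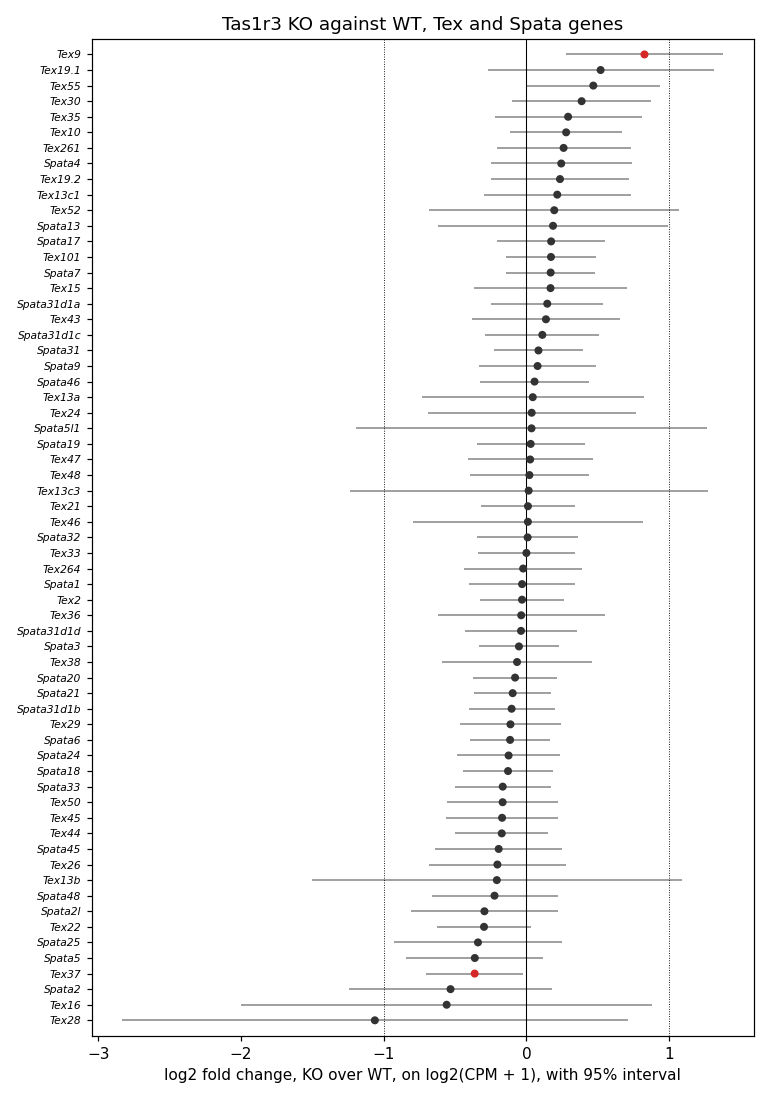
Log2 fold change of the 63 Tex and Spata genes, KO over WT, computed from log2(CPM + 1), with 95% limma intervals; n = 2 per genotype. Dotted lines mark a 2-fold change, and red points have an unadjusted p under 0.05. Most intervals lie between the dotted lines and cross 0; Tex9 and Tex37 do not cross 0, and 0 of 63 passed after adjustment.

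Tex9, which encodes a coiled-coil protein, had the largest difference on the higher side. It measured 25.3 and 32.9 CPM in WT against 46.4 and 58.1 CPM in KO, about 103 and 69 reads, and both KO samples lay above both WT samples. The difference was 0.83 on the log2 scale (SE 0.24; limma adjusted p = 0.942 over all genes), a 1.77-fold higher level in KO. It passed without KO sample 1 (0.99, adjusted p = 0.0036), where KO sample 2 is assumed to vary as the WT samples do. Tex9 lies on the minus strand of chromosome 9, from 72365337 to 72399242 in mm39, and overlaps by 523 bases the plus-strand gene Mns1, a protein of the sperm flagellum. No source used here says whether counting used strand. Mns1 measured 282 and 276 CPM in WT against 271 and 254 CPM in KO, a log2 fold change of -0.09, and its part in the Tex9 value was not tested.

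In order of p, the next members on the higher side were Tex55, Tex30, Tex10, Tex19.1 and Tex35. Tex55 measured 54.7 and 47.6 CPM in WT against 62.7 and 80.2 CPM in KO. The difference was 0.47 on the log2 scale (SE 0.20; limma adjusted p = 0.942). The genotypes did not overlap, and neither did they for Tex10, a protein of ribosome assembly, with 86.2 and 77.6 CPM in WT against 107 and 92.7 CPM in KO. Tex30 measured 59.6 and 79.7 CPM in WT against 80.1 and 102 CPM in KO. It shares 13.5% of its 50-base words with the gene model Gm29247, and whether reads are divided between them was not tested. Tex35 measured 207 and 186 CPM in WT against 188 and 308 CPM in KO, so its higher mean came from KO sample 2 alone.

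On the lower side Tex37, a microtubule inner protein of the sperm flagellum, had the smallest p. It measured 187 and 178 CPM in WT against 132 and 152 CPM in KO, with both KO samples below both WT samples. It lies on the minus strand of chromosome 6, from 70890073 to 70895907 in mm39. The difference was -0.36 on the log2 scale (SE 0.15; limma adjusted p = 0.942). Tex22 measured 260.3 and 238 CPM in WT against 188 and 217 CPM in KO, also without overlap (log2 fold change -0.30, SE 0.14). Spata5, an AAA ATPase of ribosome assembly, measured 63.2 and 64.2 CPM in WT against 56.9 and 42.8 CPM in KO. These 3 genes did not pass, and their 95% intervals reached -0.70, -0.63 and -0.84 on the log2 scale.

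Spata2 and its relative Spata2l were both lower on average. Spata2, which overlaps the neighbouring gene Rnf114 by 231 bases and which links the deubiquitinase CYLD to the linear ubiquitin ligase, measured 17.5 and 20.1 CPM in WT against 12.8 and 12.5 CPM in KO, about 66 and 17 reads. Spata2l measured 37.2 and 34.5 CPM in WT against 28.2 and 29.9 CPM in KO. Spata2l overlaps the opposite-strand gene 4933417D19Rik by 1169 bases, which measured 43.6 and 42.6 CPM in WT against 36.0 and 36.8 CPM in KO, and its part in the Spata2l value was not tested. The genotypes did not overlap in Spata2 or Spata2l, and neither passed (log2 fold changes -0.53, SE 0.31, and -0.29, SE 0.22). With about 9.6 and 7.5 estimated reads in the KO libraries, the closeness of the Spata2 values in KO does not show close agreement. Spata25 measured 63.4 and 52.3 CPM in WT against 36.1 and 56.9 CPM in KO, so its genotypes overlapped.

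By role the lists had means in both directions. Of 13 members placed in the list of widely expressed proteins, 7 were higher and 6 lower in KO (median log2 fold change 0.04). Tex9 was the 1 past an unadjusted limma p of 0.05. Role lists were placed by hand and not checked against expression in other tissues. The genotypes did not overlap in 8 of these 13 (61.5%), 5 higher and 3 lower, against 34.4% of all tested genes (15% higher and 19.4% lower). Beside those already named, Spata7, a protein of the photoreceptor cilium, measured 386 and 367 CPM in WT against 389 and 461 CPM in KO. Tex264, a receptor for autophagy of the endoplasmic reticulum, measured 66.0 and 71.9 CPM in WT against 72.3 and 63.6 CPM in KO. Spata13, a guanine nucleotide exchange factor, measured 10.8 and 14.3 CPM in WT against 16.0 and 12.8 CPM in KO. Spata1 measured 212 and 195 CPM in WT against 177 and 224 CPM in KO. Of these 4 genes, Spata7 alone had both KO samples above both WT samples, and KO sample 1 barely so. Tex261 also had both KO samples higher, with 41.9 and 50.3 CPM in WT against 58.8 and 51.8 CPM in KO.

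In the list placed with spermatogonia and meiosis, 9 of 12 members were higher and 3 lower (median 0.11), and 0 had an unadjusted p under 0.05. Samples did not overlap between genotypes in 4 of these 12 (33.3%), 4 higher and 0 lower. The share over all tested genes was 34.4% (15% higher and 19.4% lower). Tex101, a germ cell surface protein, measured 174 and 186 CPM in WT against 207 and 199 CPM in KO, without overlap (log2 fold change 0.17, SE 0.14). Tex15, a protein of meiotic recombination and transposon silencing, measured 45.9 and 57.0 CPM in WT against 68.4 and 48.5 CPM in KO, with overlap. The related genes Tex19.1, which represses transposons in germ cells, and Tex19.2 lie on chromosome 11. Tex19.1 measured 14.5 and 9.67 CPM in WT against 17.8 and 17.1 CPM in KO. Tex19.2 measured 39.6 and 35.8 CPM in WT against 42.3 and 46.8 CPM in KO. Both had KO above WT without overlap, as had Spata17 with 85.1 and 80.2 CPM in WT against 88.2 and 98.7 CPM in KO, and none of them passed. The Tex19 genes share 2.67% and 2.50% of their 50-base words, and their sum was 54.1 and 45.5 CPM in WT and 60.1 and 63.9 CPM in KO. Beside this list, KO means were higher for 5 of 5 spermatocyte markers and 5 of 6 spermatogonial markers, of which 0 passed the adjusted threshold and 2, both of spermatocytes, had an unadjusted p under 0.05. In the other germ cell lists, KO means were higher for 3 of 4 round spermatid and 2 of 5 elongating spermatid markers. They were higher for 4 of 6 Sertoli cell, 3 of 6 Leydig cell and 2 of 3 endothelial markers. For macrophage, myoid and blood markers they were higher in 1 of 3, 0 of 3 and 0 of 5. Among these other lists, 1 round spermatid and 1 blood marker had an unadjusted limma p under 0.05. The median log2 fold change was 0.30 for spermatogonial, 0.18 for spermatocyte, 0.23 for round spermatid and -0.05 for elongating spermatid markers. Sycp1, a protein of the synaptonemal complex, measured 57.3 and 53.4 CPM in WT against 77.8 and 74.9 CPM in KO. Hormad1, a protein of the meiotic chromosome axis, measured 55.8 and 47.0 CPM in WT against 76.1 and 75.3 CPM in KO, and neither gene overlapped between genotypes. The remaining spermatocyte markers, Sycp3, Piwil1 and Ddx4, did overlap. Sycp3 measured 93.6 and 70.2 CPM in WT against 105 and 81.1 CPM in KO. Piwil1 measured 331 and 375 CPM against 462 and 321 CPM, and Ddx4 312 and 276 CPM against 358 and 288 CPM. The summed spermatocyte level of KO sample 2 lay within the WT range, and the part of these cells in the list was not tested.

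The 6 X-linked members were low apart from Tex13a and Tex13c1. Tex13a measured 91.9 and 88.4 CPM in WT, 61.4 CPM in KO sample 1 and 140.5 CPM in KO sample 2, the widest gap between samples of a genotype among members of at least 20 CPM. Tex13c1 measured 48.3 and 37.1 CPM in WT against 45.4 and 53.5 CPM in KO. Tex13b lay between 2.67 and 5.82 CPM, Tex13c3 between 2.77 and 4.65 CPM, and Tex16 between 1.67 and 6.68 CPM. Those 3 genes had 5 or 6 estimated reads over both KO libraries, so a difference was not detectable at this depth. Tex13b and Tex13c3 also held values equal to those of another gene, as genes with few reads can.

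Among 29 members of spermatids, sperm head and sperm tail, 12 were higher and 17 lower in KO (median -0.07), and 1, Tex37, had an unadjusted p under 0.05. The genotypes did not overlap in 8 of these 29 (27.6%), 1 higher (Tex55) and 7 lower, against 34.4% of all tested genes (15% higher and 19.4% lower). Beside Tex37 and Tex22, the lower group held Tex44, with 154 and 164 CPM in WT against 139 and 142 CPM in KO, and Tex45, with 75.0 and 74.1 CPM in WT against 64.6 and 67.7 CPM in KO. It also held Tex29, Tex26 and Spata48. Spata46, which shapes the mouse sperm nucleus, measured 195 and 183 CPM in WT against 172 and 224 CPM in KO, and Tex38, a partner of a palmitoyl transferase, measured 40.1 and 32.1 CPM in WT against 33.4 and 35.1 CPM in KO. In both genes the genotypes overlapped.

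The members not yet described had no difference past the test. Spata3 measured 479.8 and 493 CPM in WT against 450.1 and 489 CPM in KO, Tex48 measured 285 and 298 CPM in WT against 247 and 355 CPM in KO, and Tex21 measured 199 and 188 CPM in WT against 183 and 208 CPM in KO. Spata32, a protein of the acrosome region, lay between 113 and 126 CPM, and Tex43, a microtubule inner protein of the flagellum, between 65.8 and 98.3 CPM. Both genotypes overlapped in these 5 genes. Spata45 lay between 62.8 and 86.7 CPM, Spata9 between 73.5 and 89.9 CPM, Tex47 between 48.2 and 50.8 CPM, Tex52 between 10.97 and 19.7 CPM and Spata5l1 between 3.48 and 6.69 CPM, also with overlap. Tex47 had the narrowest range of these. The same-strand gene Foxm1 overlaps Tex52 by 378 bases and measured 211 and 224 CPM in WT against 217 and 203 CPM in KO. The same-strand gene Efcab15 overlaps Spata32 by 423 bases and measured 141 and 157 CPM in WT against 105 and 130 CPM in KO. The part of Foxm1 and Efcab15 in the Tex52 and Spata32 values was not tested. Tex50, which was placed in no role list, measured 111.1 and 112.3 CPM in WT against 89.5 and 110.4 CPM in KO. Both KO samples lay below both WT samples, and KO sample 2 barely so. In that library 1 read is worth 1.67 CPM. The opposite-strand gene Ankrd45 overlaps Tex50 by 2473 bases and had a log2 fold change of 0.14. The part of Ankrd45 in the Tex50 value was not tested.

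The Spata31 subfamily was described as a group because its genes share a name, and Spata31d1a and Spata31d1b are near copies. The 5 genes lie on chromosome 13, and the window of Spata31d1a matched that of Spata31d1b at 96.5% of 284 aligned bases, where other pairs of the 5 matched at 63.1% to 73.7%. The transcripts of Spata31d1a and Spata31d1b shared 18.8% and 24.9% of their 50-base words, so reads between them are uncertain. Spata31d1b was the highest with 321 and 363 CPM in WT against 324 and 312 CPM in KO. Spata31d1a measured 138 and 174 CPM in WT against 186 and 158 CPM in KO. With the near-identical windows shown above, Spata31d1b was higher than Spata31d1a in each library, with transcripts of near-equal length (4281 and 4277 bases).

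The other genes of the subfamily were all lower than Spata31d1b. Spata31 measured 178 and 182 CPM in WT against 196 and 186 CPM in KO, above Spata31d1a in each library. Spata31d1d measured 136 and 156 CPM in WT against 159 and 127 CPM in KO, and Spata31d1c measured 64.0 and 64.2 CPM in WT against 66.8 and 71.9 CPM in KO. Per kilobase the order was Spata31d1b at 77.1, Spata31 at 57.4, Spata31d1a at 38.3, Spata31d1d at 37.8 and Spata31d1c at 19.7 CPM per kilobase. Spata31d1a and Spata31d1d changed places between libraries per kilobase, with 32.3 and 35.6 in WT sample 1 and 43.5 and 41.5 in KO sample 1, so their order does not hold beyond the spread. Summed, the subfamily measured 837 and 939.5 CPM in WT against 932 and 854 CPM in KO, and both genotypes overlapped.

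Several members had more than 1 annotated start. Of the 22 members with 2 or more transcripts in the table, 10 had transcripts with different first bases. Such bases can lie close together. In Tex48 they were 63540671 and 63540654, and both transcripts were given 177 CPM in KO sample 2. The count is of annotated starts and does not show that each was used. The upstream and downstream starts of Spata6 are 57587 bases apart, and this distance is the same between the starts in the table and the windows printed above. Transcripts from the upstream start measured 639 and 602 CPM in WT against 627 and 532 CPM in KO. The downstream start gave 291 and 290.5 CPM in WT, 167 CPM in KO sample 1 and 361 CPM in KO sample 2. This was 31.3% and 32.5% of the gene in WT and 40.4% in KO sample 2, with a lower share in KO sample 1. The 2 WT samples agreed closely, and the KO samples lay on either side of them.

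Tex33 was divided more evenly. Its upstream start gave 327 and 284 CPM in WT and 276 and 444 CPM in KO, and its downstream start, 7143 bases away, gave 201 and 228 CPM in WT and 185 and 143 CPM in KO. The downstream share was 38.0% and 44.5% in WT and 40.2% and 24.4% in KO. Spata19 used mostly its upstream start, and the start 405 bases downstream gave 11.7% and 8.60% of its level in WT and 19.18% and 13.9% in KO. The KO shares of Spata19 lay above its WT shares, and this was not tested. Spata19 was named after its values were seen, and no background over other genes is given for such shares. Gene values were often not whole reads, so these shares are treated as estimated divisions of reads between transcripts. In 13 of the 22 members the leading transcript differed between libraries. In Tex264 the noncoding transcript NR_104459 took 12.0% and 5.29% of the gene in WT, 3.55% in KO sample 1 and 69.9% in KO sample 2, while the summed gene stayed between 63.6 and 72.3 CPM. In Tex35 the transcript NM_001374637 stood at 52.0 and 35.0 CPM in WT against 0.38 and 2.53 CPM in KO, under the value of 3 reads in both KO libraries.

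**Figure D3:**
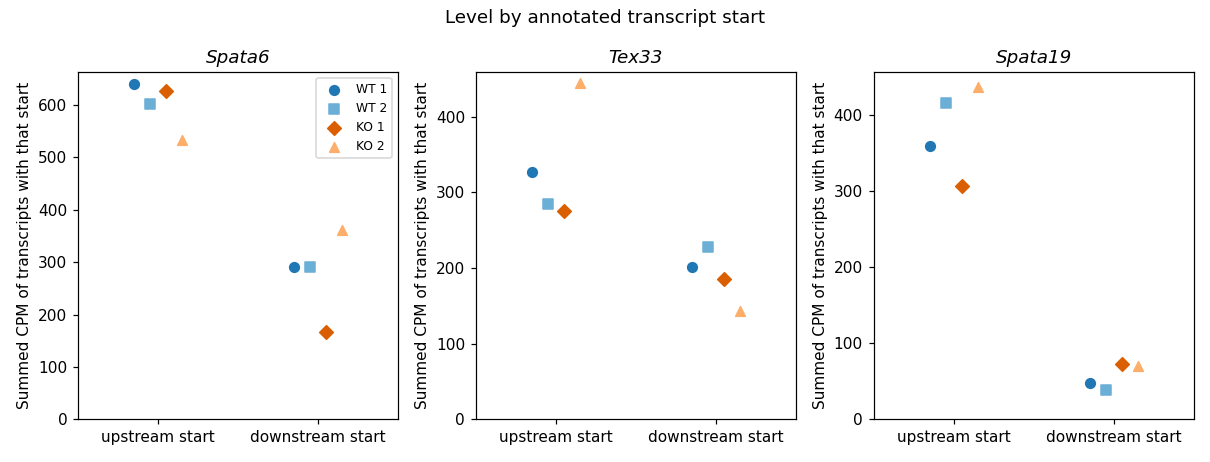
Summed level, in CPM, of the transcripts from the upstream and the downstream annotated start of Spata6, Tex33 and Spata19 in the 4 samples. Points are single samples. The downstream start of Spata6 stands at 167 CPM in KO 1 and 361 CPM in KO 2, with both WT samples near 291 CPM.

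The KO samples differed from each other more than the WT samples did. The difference between the 2 samples of a genotype was larger in KO than in WT for 45 of 63 members, and its median size was 0.25 in KO and 0.12 in WT on the log2(CPM + 1) scale; over all tested genes it was 0.44 and 0.26. KO sample 2 was above KO sample 1 in 41 members, and WT sample 2 above WT sample 1 in 31. Depth was also lower in KO, and its part was not tested.

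Among members of at least 20 CPM the KO difference followed transcript length, a pattern chosen after the values were seen. Length is the mean over a gene's transcripts weighted by level. In all 16 such members under 1000 bases KO sample 2 was above KO sample 1, by a median of 0.40 on the log2 scale. The same held for 15 of 20 members from 1000 to 2000 bases (median 0.18) and for 8 of 18 longer members (median -0.07). Other genes at this level followed the same order, with KO sample 2 higher in 76.2% of 753 genes under 1000 bases, 55.5% of 1683 from 1000 to 2000 bases and 33.8% of 4876 longer genes. Pearson's r between log2 length and the KO difference was -0.59 over 54 members and -0.34 over 7312 other genes, which share their libraries. For WT sample 2 minus WT sample 1 it was 0.37 over the members and 0.06 over other genes.

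Single members show the split. Tex36, with 915 bases, measured 114 and 104 CPM in WT, 80.1 CPM in KO sample 1 and 140.5 CPM in KO sample 2. Tex46, with 670.0 bases, measured 18.0 and 21.6 CPM in WT, 14.7 CPM in KO sample 1 and 26.8 CPM in KO sample 2. Tex24, with 1767 bases, measured 30.8 and 39.3 CPM in WT, 26.3 CPM in KO sample 1 and 48.4 CPM in KO sample 2, and shares 32.4% of its 50-base words with the gene model Gm6853. In each of these genes KO sample 1 was the lowest and KO sample 2 the highest of 4, so the genotype mean hides a difference between samples. Members of 2000 bases or more were divided. Tex15 stood at 68.4 and 48.5 CPM and Spata5 at 56.9 and 42.8 CPM in KO samples 1 and 2, while Spata6 stood at 793 and 893 CPM and Spata7 at 389 and 461 CPM. KO sample 1 was the lowest of 4 libraries in 13 of 16 members under 1000 bases and in 3 of 18 members of 2000 bases or more. The summed elongating spermatid markers, 20642 CPM in KO sample 1 and 31050.0 CPM in KO sample 2, had the same order as the short members. Prm1, Prm2, Tnp1 and Tnp2 had this order singly, and Odf1 had the opposite one, at 1556 and 1512 CPM. Neither the part of these markers nor that of transcript length was tested.

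**Figure D4:**
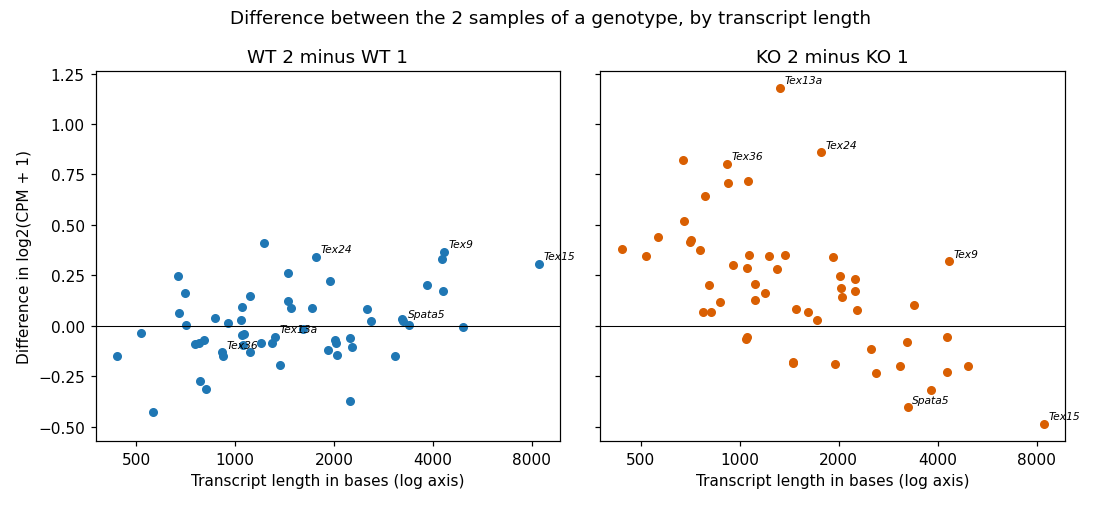
Difference in log2(CPM + 1) between the 2 samples of a genotype against transcript length in bases (log axis), for the 54 Tex and Spata genes of at least 20 CPM; points are genes. In the KO panel all 16 genes under 1000 bases lie above 0, and in the WT panel 6 of 16 do.

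Calls depended on which KO sample was kept. Without KO sample 1 the adjusted threshold was passed as higher by 6 members, Tex9, Spata4 (log2 fold change 0.60, adjusted p = 9.22e-06), Tex35 (0.64, adjusted p = 0.000485), Tex13a (0.63, adjusted p = 0.0075), Tex55 (0.64, adjusted p = 0.031) and Tex30 (0.56, adjusted p = 0.043), in limma with 1 KO sample and a spread from the WT samples alone. Without KO sample 2 it was passed by 0 members, and the estimates for Spata4, Tex35 and Tex13a were -0.11, -0.06 and -0.55. With a KO sample left out, 22.6% (without KO sample 1) and 17.4% (without KO sample 2) of all tested genes had an unadjusted p under 0.05, against 4.69% with all samples. At the adjusted threshold, 2.09% of all tested genes were higher and 4.95% lower without KO sample 1 (371 and 878 genes), and 0.727% were higher and 2.47% lower without KO sample 2 (129 and 439 genes).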

How the data were processed

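RNA of 4 testis samples, 2 WT and 2 Tas1r3 KO by the titles in the labels, was analysed. Per the labels' protocols, total RNA was made into Ion Torrent libraries. The submitters' processing notes name STAR, Partek and mm39, and no version or setting was found in the sources used here. The authors deposited CPM for each RefSeq transcript, with equal column totals. The 4 sample tables equal the table of the series. No value column was left unused. Positions and lengths are those of the deposited tables.

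Transcripts were summed per gene symbol. The step between the commonest low values gave the worth of 1 read; 23.1% to 48.1% of gene values above 0.5 reads were whole within 0.02 reads, so reads are estimates, and floors cover counting error only. A gene entered the test if 2 or more libraries reached 1 CPM. The test was limma 3.58.1 (R 4.3.3, values as log2(CPM + 1), mean trend on), two-sided and Benjamini-Hochberg adjusted over 17744 genes at 0.05. Such fold changes understate changes of low genes. The procedure was run on simulated data with the same added spread in every library, unlike these data, and no conclusion is drawn from that run. A permutation test of 2 against 2 samples cannot reach 0.05 and was not used. Shared 50-base words come from GENCODE M21 transcripts, where 62 members matched. Members, lists and tests were chosen with earlier results of these data known. Named genes were Tex9, Tex37, Spata18, the 8 most abundant members, and the 6 per direction with the smallest p at 5 CPM or more. The rule added the 3 with the widest gap between samples of a genotype at 20 CPM or more. It also took the 3 most abundant of each role list, the Tex13, Tex19 and Spata31 genes, and Tex50. Members whose leading transcript differed between libraries were named too. Genes outside this rule, such as Spata33, Spata19 and Tex44, were named after their values were seen. Alternatives changed the pseudocount, filter, scaling (trimmed mean of M values, or quantiles), trend or block, or left out a sample. Tables and figures were made in Python 3.11.15 (matplotlib 3.10.9, numpy 2.4.6, pandas 2.3.3).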

Additional observations from a re-analysis of the deposited data

How the results depend on the processing

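No Tex or Spata gene passed the adjusted threshold with other pseudocounts, filters or scalings, without a mean trend, with the replicate number as a block, or without either WT sample or KO sample 2; 6 passed as higher without KO sample 1 (range over left-out samples 0 to 6 higher). At an unadjusted p under 0.05, 2 members were higher with a pseudocount of 5 CPM or TMM rescaling, and 0 were lower without a mean trend or with the replicate block; with single samples left out there were 0 to 12 higher and 0 to 8 lower. The members' median log2 fold change lay between -0.084 (without KO sample 2) and 0.033 over left-out samples. Over all genes, 0 passed as lower with a pseudocount of 0.1 CPM or without a mean trend, and 6 higher and 17 lower passed with the replicate block; left-out samples gave 0 to 371 higher and 0 to 878 lower. The labels do not say that equal numbers mark shared animals or batches, and the numbers showed no pairing (r = -0.01 over 17744 genes between WT 1 minus WT 2 and KO 1 minus KO 2). The cause of these changes was not tested. Among the named members refitted under each alternative, the sign changed when 1 sample was left out, and under no other alternative, in those that follow: log2 fold changes ranged for Spata1 -0.20 to 0.14, Spata13 -0.00127 to 0.37, Spata20 -0.20 to 0.0385, Spata24 -0.34 to 0.0876, Spata31d1a -0.0195 to 0.31, Spata31d1d -0.20 to 0.12, Spata4 -0.11 to 0.60, Tex13a -0.55 to 0.63, Tex13b -0.56 to 0.15, Tex13c3 -0.28 to 0.31, Tex2 -0.13 to 0.0695, Tex21 -0.0826 to 0.10, Tex24 -0.39 to 0.47, Tex264 -0.11 to 0.0692, Tex33 -0.17 to 0.17, Tex35 -0.0605 to 0.64, Tex46 -0.40 to 0.42, Tex48 -0.24 to 0.28. Few reads in KO limit the 9 members under 20 CPM.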
